A study of Mus musculus with 32 samples.

Results

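A set of 10 genes of the resting, or homeostatic, astrocyte were followed in the striatum of 32 mice. It held the glutamate transporter genes Slc1a2 and Slc1a3, the glutamine synthetase gene Glul, the potassium channel gene Kcnj10 and the water channel gene Aqp4. The rest were the gap junction gene Gja1, the metabolic genes Aldoc and Etnppl, the astrocyte marker gene Ndrg2 and the secreted protease gene Htra1. All 10 members were chosen by name, with earlier results of these data known. All were among the 10679 genes that passed the filter on low counts, out of 55415 features in the count files. The mice formed 4 groups of 8, with 1 library per separately numbered animal. Wild-type (WT) littermates received artificial cerebrospinal fluid (aCSF), and YAC128 mice, which carry human HTT with an expanded CAG repeat on a yeast artificial chromosome and were kept on a B6 background, received aCSF, a scrambled antisense oligonucleotide (AON), or AON12.1, which the series title places at the caspase-6 cleavage site of HTT. All 4 groups had a cannula placed in the lateral ventricle at about 6 months of age and 3 injections of 10 µL, the later ones 2 and 4 weeks after surgery, with 500 µg of oligonucleotide in the AON groups, and the striatum was taken at 12 months. No oligonucleotide was given to WT mice, so the scrambled and AON12.1 groups differ from WT in both genotype and oligonucleotide, and these cannot be told apart there.

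Astrocytes clear glutamate and potassium that neurons release, convert glutamate to glutamine for return to neurons, move water at the vessel wall and share ions and metabolites through gap junctions. Slc1a2 (GLT-1) and Slc1a3 (GLAST) take up glutamate with sodium, Kcnj10 (Kir4.1) sets the potassium conductance of the astrocyte membrane, and loss of both GLT-1 and Kir4.1 has been described in the striatum of Huntington disease mice. Gliosis is usually described as a gain of intermediate filament genes such as Gfap and Vim, whereas the genes followed here belong to the support functions of the unprovoked cell.

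Total gene counts ran from 658934 to 1419313 per library (mean 958910), and no pair of libraries held identical values. Levels are TMM-scaled CPM, that is, a gene's count relative to the size of its library. Log2 fold changes ± SE come from 1 edgeR quasi-likelihood fit of all 32 libraries, and p-values were adjusted by the Benjamini-Hochberg method over the 10679 genes. A gene passed at an adjusted p under 0.05. The libraries come from an oligo-dT 3' method, and levels are compared only within a gene. The share of reads outside any annotated feature ran from 16.3% to 33.7% and its mean was 19.5% ± 4.40 for WT, 25.7% ± 4.92 for YAC128 mice with aCSF, 23.8% ± 6.70 for those with AON12.1 and 22.1% ± 2.41 for those with scrambled (SD, n = 8). WT replicate 1, at 30.2%, stood apart from the other 7 WT libraries. RNA from whole striatum was measured, so fewer astrocytes and less RNA per astrocyte cannot be told apart.

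In all, 3 members passed when a single group was set against WT: Kcnj10, Ndrg2 and Etnppl were lower in YAC128 mice given AON12.1, and Ndrg2 and Etnppl were also lower in YAC128 mice given the scrambled oligonucleotide, where 0.328% and 0.0375% of all tested genes were lower. Between YAC128 and WT mice that both received aCSF, 0 of 10 members passed, as against 0.0749% of all genes. Lower values in YAC128 were found for 9 of the 10, and for 50.7% of all genes. Of these 9, Slc1a3 and Aqp4 lay close to 0, at -0.00 and -0.01. DESeq2 called 3 members for this comparison, with 54 genes in all, and limma voom 1, with 9 genes in all, and these members were lower. DESeq2 gave no adjusted p here for Aqp4, Etnppl, Gja1, Htra1 and Kcnj10. Without WT replicate 1, edgeR called 3 members and 142 genes in all, where 8 genes passed over all libraries. Slc1a3, Gja1 and Aqp4 differed from WT by at most 0.293 on the log2 scale in each YAC128 group, and none of their differences passed. Between AON12.1 and scrambled, 0 members passed (0.14% of all genes), and DESeq2 called 1, Kcnj10, with 20 genes in all.

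The promoters of the 3 members that passed in a single group against WT are shown first, since the set moved only in part and the start regions of these genes can be read side by side. Each covers 250 bases before to 50 bases after a RefSeq start site on GRCm38.p6, 5′ to 3′ on the gene's own strand, and for Ndrg2 and Etnppl the first listed start site is given. Capitals mark the nuclear factor I core TTGGC and the SOX core ACAAAG, searched on both strands.
Kcnj10, chr1:172340960-172341259, plus strand: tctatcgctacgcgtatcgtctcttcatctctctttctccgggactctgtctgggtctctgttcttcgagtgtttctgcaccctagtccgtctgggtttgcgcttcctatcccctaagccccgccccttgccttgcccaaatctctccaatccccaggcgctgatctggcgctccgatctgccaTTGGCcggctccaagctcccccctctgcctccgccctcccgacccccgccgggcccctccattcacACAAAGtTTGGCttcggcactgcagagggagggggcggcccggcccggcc
Ndrg2, chr14:51913955-51914254, minus strand: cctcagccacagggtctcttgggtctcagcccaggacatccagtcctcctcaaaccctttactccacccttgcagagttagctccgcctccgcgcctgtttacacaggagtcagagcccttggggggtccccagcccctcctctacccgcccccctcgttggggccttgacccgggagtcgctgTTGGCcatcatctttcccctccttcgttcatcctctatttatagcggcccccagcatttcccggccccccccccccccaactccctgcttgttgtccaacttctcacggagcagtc
Etnppl, chr3:130617198-130617497, plus strand: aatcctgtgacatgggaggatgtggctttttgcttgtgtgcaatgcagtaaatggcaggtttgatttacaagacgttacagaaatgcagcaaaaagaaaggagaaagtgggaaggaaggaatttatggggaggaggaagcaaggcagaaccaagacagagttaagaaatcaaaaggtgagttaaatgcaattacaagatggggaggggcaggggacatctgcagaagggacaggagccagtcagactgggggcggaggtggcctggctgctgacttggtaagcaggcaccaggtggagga
The Kcnj10 window held 2 TTGGC matches and 1 ACAAAG match, that of Ndrg2 held 1 TTGGC match, and that of Etnppl neither motif, while the window of the second Etnppl start site, not shown, held 1 TTGGC match. No match overlapped another motif in these 3 windows. GC content was 63.67%, 62.33% and 49.33%, against a median of 52.67% over 32851 RefSeq promoters. Promoters of 9 of the 10 members were searched, with 13 start sites in all, and Aqp4 was left out beforehand. TTGGC was present in 8 of these 13 windows and in 46.708% of all promoters, and ACAAAG in 1 of 13 and 18.712% of all. The RBPJ site GTGGGAA was found in 3 of 13 windows (6.383% of all), the glucocorticoid response site ACANNNTGT in 2 (6.846%) and TATAAA in 2 (13.616%). The Etnppl window shown here and both Aldoc windows held GTGGGAA, and the Slc1a2 and Glul windows held ACANNNTGT. These matches are letters in a window, and binding was not measured.

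Among the glutamate-handling genes, Slc1a2 had the lowest values in YAC128 mice given aCSF. Slc1a2 (ENSMUSG00000005089, chromosome 2), the main glutamate transporter of forebrain astrocytes, had a lowest, median and highest value of 1361, 1689 and 1924 CPM in WT mice, and of 1148, 1272 and 1518 CPM in YAC128 mice given aCSF. The same values were 1245, 1595 and 1907 CPM with AON12.1 and 1352, 1506 and 1751 CPM with the scrambled oligonucleotide. All 8 YAC128 aCSF libraries lay below the WT median and 6 lay below the lowest WT library, yet the groups overlapped, while the AON12.1 and scrambled ranges lay largely inside that of WT. Group means were 1662 ± 177 CPM in WT, 1287 ± 133 CPM in YAC128 aCSF, 1595 ± 200.1 CPM with AON12.1 and 1515 ± 116 CPM with scrambled (SD, n = 8). The genotype log2 fold change was -0.37 ± 0.08 (adjusted p = 0.0671), short of the threshold, with a 95% interval of -0.54 to -0.20. AON12.1 stood 0.31 ± 0.08 (adjusted p = 0.0889) from YAC128 aCSF and 0.07 ± 0.08 (adjusted p = 0.909) from scrambled, and scrambled stood 0.24 ± 0.08 (adjusted p = 0.326) from aCSF, none of which passed. Against WT, the values of Slc1a2 were -0.06 ± 0.08 (adjusted p = 0.782) for AON12.1 and -0.13 ± 0.08 (adjusted p = 0.618) for scrambled, so YAC128 aCSF was lowest in the order of means and WT highest, with no pair of neighbours passing the test. Without WT replicate 1 the genotype difference of Slc1a2 passed (adjusted p = 0.0227), as it did without WT replicate 7 or YAC128 aCSF replicate 8. The difference from aCSF also passed for AON12.1 without AON12.1 replicate 7 (adjusted p = 0.0276) or without aCSF replicate 8.

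Slc1a3 (ENSMUSG00000005360, chromosome 15), the second astrocytic glutamate transporter, ran at 237, 292 and 388 CPM (lowest, median, highest) in WT and at 285, 299.6 and 320.0 CPM in YAC128 aCSF mice. With AON12.1 it ran at 243, 285 and 355 CPM and with scrambled at 255, 280.4 and 324 CPM. The 4 groups overlapped almost fully, and the WT libraries spread most. Its genotype log2 fold change was -0.00 ± 0.09 (adjusted p = 0.995), with a 95% interval of -0.19 to 0.19, which leaves room for a difference of that size in either direction. AON12.1 and scrambled differed by 0.06 ± 0.09 (adjusted p = 0.941). Glul (ENSMUSG00000026473, chromosome 1), the glutamine synthetase of astrocytes, measured 474, 565 and 706 CPM in WT mice, 345, 447 and 581 CPM in YAC128 aCSF, 388, 453 and 579.8 CPM with AON12.1 and 393, 513 and 624 CPM with scrambled. Of the 8 YAC128 aCSF libraries, 5 lay below the lowest WT library, and 4 of 8 AON12.1 libraries did, while the upper parts of all groups overlapped. The Glul values were -0.30 ± 0.11 (adjusted p = 0.247) for genotype, -0.32 ± 0.11 (adjusted p = 0.168) for AON12.1 against WT and -0.17 ± 0.11 (adjusted p = 0.635) for scrambled against WT, and none passed. AON12.1 against scrambled gave -0.15 ± 0.11 (adjusted p = 0.829). The Glul annotation on GRCm38 overlaps Teddm2 on the other strand, and that of Slc1a3 overlaps Gm37310 on its own strand, which held 19 counts over all libraries.

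**Figure D1:**
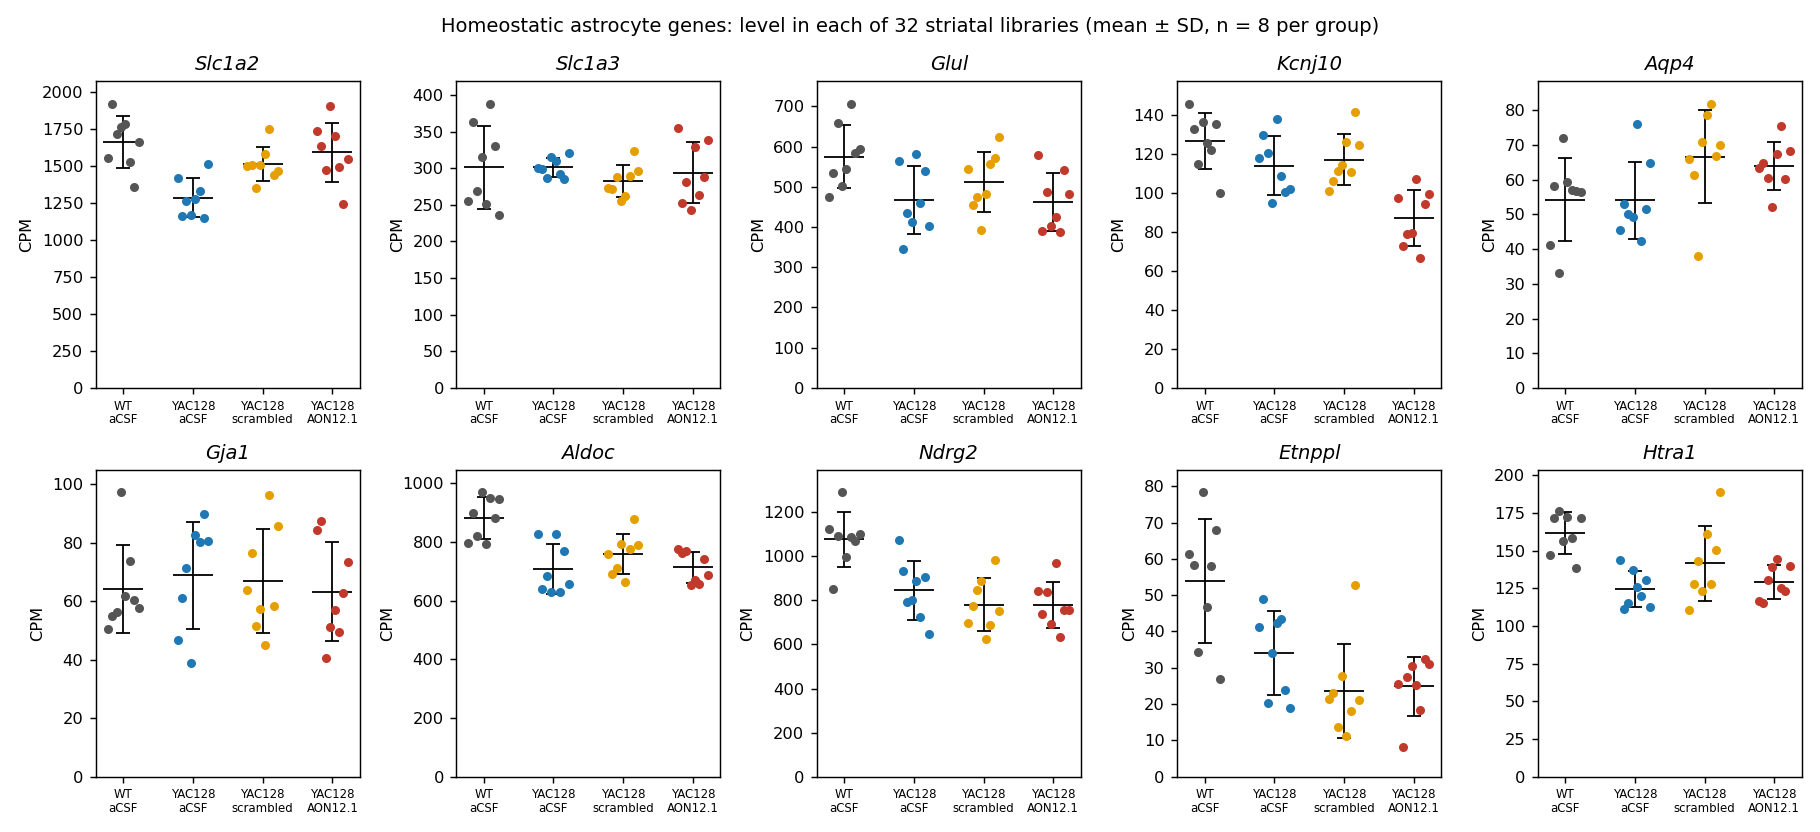
Level of each homeostatic astrocyte gene in every library: the vertical axis is TMM-scaled CPM from 0, each point is 1 library of the 8 in a group, and the bars give the group mean and SD. Kcnj10 is lowest with AON12.1 (87.2 ± 14.5 CPM against 127 ± 14.4 CPM in WT), Etnppl is lower in all 3 YAC128 groups than in WT by its means, and Slc1a3 and Gja1 overlap across groups.

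Kcnj10 was lower with AON12.1 than in WT, and of the members it had the largest difference in value between AON12.1 and scrambled, which did not pass. Kcnj10 (ENSMUSG00000044708, chromosome 1), the inward-rectifier channel that buffers potassium, had a lowest, median and highest value of 100.0, 129 and 146 CPM in WT mice, 95.1, 113 and 138 CPM in YAC128 aCSF, 66.8, 87.1 and 107 CPM with AON12.1 and 101, 113 and 142 CPM with scrambled. In the AON12.1 group, 7 of 8 libraries lay below the lowest WT library, 7 of 8 below the lowest scrambled library and 5 of 8 below the lowest aCSF library. Kcnj10 fell by 31.1% with AON12.1 against WT, which is -0.54 ± 0.10 (adjusted p = 0.00438) in log2 units with a 95% interval of -0.74 to -0.33. The other differences of the AON12.1 group were -0.42 ± 0.10 (adjusted p = 0.115) from scrambled and -0.39 ± 0.10 (adjusted p = 0.0842) from aCSF, and neither passed. YAC128 aCSF and scrambled mice differed from WT by -0.15 ± 0.10 (adjusted p = 0.537) and -0.12 ± 0.10 (adjusted p = 0.710), and from each other by 0.03 ± 0.10 (adjusted p = 0.955). By means the order was WT, scrambled, aCSF and AON12.1, and of these only WT and AON12.1 were separated by a test. The difference from scrambled passed when AON12.1 replicate 5 was left out (adjusted p = 0.0481), and the difference from WT passed in all 16 fits that left out 1 library of either group (adjusted p from 0.00256 to 0.0126).

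Aqp4 (ENSMUSG00000024411, chromosome 18), the water channel of astrocyte endfeet, had its higher medians in the oligonucleotide groups. Its lowest, median and highest values were 33.1, 57.0 and 72.0 CPM in WT mice, 42.3, 50.9 and 76.1 CPM in YAC128 aCSF, 52.2, 64.0 and 75.4 CPM with AON12.1 and 37.9, 68.3 and 81.9 CPM with scrambled. All 4 ranges overlapped. Log2 fold changes for Aqp4 were -0.01 ± 0.14 (adjusted p = 0.988) for genotype, 0.23 ± 0.14 (adjusted p = 0.462) for AON12.1 against WT, 0.29 ± 0.14 (adjusted p = 0.475) for scrambled against WT and -0.07 ± 0.13 (adjusted p = 0.957) for AON12.1 against scrambled. Gja1 (ENSMUSG00000050953, chromosome 10), which encodes connexin 43 of astrocyte gap junctions, measured 50.6, 59.1 and 97.2 CPM in WT mice, 38.7, 75.7 and 89.7 CPM in YAC128 aCSF, 40.6, 59.8 and 87.4 CPM with AON12.1 and 45.0, 61.1 and 96.4 CPM with scrambled. High and low libraries of Gja1 occurred in each group. Its genotype log2 fold change was 0.10 ± 0.17 (adjusted p = 0.868), with a 95% interval of -0.25 to 0.44, and the AON12.1 to scrambled value was -0.11 ± 0.17 (adjusted p = 0.942) with an interval of -0.45 to 0.24.

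Ndrg2 and Etnppl passed as lower than WT in both oligonucleotide groups, and neither differed by the test between these groups and YAC128 aCSF. Ndrg2 (ENSMUSG00000004558, chromosome 14), a cytoplasmic protein of the N-myc downstream-regulated family that is used as an astrocyte marker, had a lowest, median and highest value of 851, 1091 and 1290.5 CPM in WT mice, against 646, 847 and 1074 CPM in YAC128 mice given aCSF. With AON12.1 these were 635, 756 and 971 CPM, and with scrambled 624, 762 and 984 CPM. All 24 YAC128 libraries lay below the WT median, and 7 of 8 AON12.1, 6 of 8 scrambled and 4 of 8 aCSF libraries lay below the lowest WT library. Ndrg2 fell by 27.8% with AON12.1 (log2 fold change -0.47 ± 0.10, adjusted p = 0.0110) and by 27.5% with scrambled (log2 fold change -0.46 ± 0.10, adjusted p = 0.0307) against WT. The genotype value under aCSF, -0.35 ± 0.10 (adjusted p = 0.150), did not pass, and AON12.1 and scrambled lay -0.00 ± 0.10 (adjusted p = 0.998) apart, with a 95% interval of -0.21 to 0.20. From YAC128 aCSF, AON12.1 differed by -0.12 ± 0.10 (adjusted p = 0.682) and scrambled by -0.12 ± 0.10 (adjusted p = 0.720). Leaving out 1 library at a time, the Ndrg2 difference between AON12.1 and WT passed in 16 of 16 fits and that between scrambled and WT in 8 of 16, being lost without WT replicate 3, 4, 6 or 8 or scrambled replicate 1, 5, 6 or 8 (adjusted p up to 0.0833).

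Etnppl (ENSMUSG00000019232, chromosome 3), an enzyme that breaks down phosphoethanolamine and is enriched in astrocytes, was the least counted member, with 5 to 87 counts per library. Its lowest, median and highest levels were 26.8, 58.2 and 78.3 CPM in WT mice, 18.8, 37.6 and 48.8 CPM in YAC128 aCSF, 8.09, 26.5 and 32.3 CPM with AON12.1 and 11.2, 21.2 and 52.8 CPM with scrambled. Every YAC128 library was below the WT median, and 3 of 8 aCSF, 4 of 8 AON12.1 and 6 of 8 scrambled libraries were below the lowest WT library, with WT itself spread widely. Etnppl was 53.1% lower than in WT with AON12.1, or -1.09 ± 0.24 (adjusted p = 0.0139) in log2 units. With scrambled it was 57.6% lower than in WT, or -1.24 ± 0.24 (adjusted p = 0.0111). For genotype under aCSF the value was -0.69 ± 0.23 (adjusted p = 0.207) with a 95% interval of -1.16 to -0.23, and AON12.1 against scrambled gave 0.14 ± 0.26 (adjusted p = 0.952). Against YAC128 aCSF, Etnppl gave -0.40 ± 0.25 (adjusted p = 0.561) with AON12.1 and -0.54 ± 0.25 (adjusted p = 0.478) with scrambled. Both Etnppl calls against WT held in 16 of 16 fits with 1 library left out. The difference between scrambled and WT was -1.47 (adjusted p = 0.000522) without scrambled replicate 7, the library highest in its group at 52.8 CPM, with the next at 27.6 CPM.

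Aldoc (ENSMUSG00000017390, chromosome 11), the brain aldolase of glycolysis, which astrocytes express strongly, was the sole member with a comparison in which the groups did not overlap. It measured 791, 889 and 968 CPM (lowest, median, highest) in WT mice, 629, 669 and 828 CPM in YAC128 aCSF, 654, 713 and 774 CPM with AON12.1 and 662, 766 and 878 CPM with scrambled. All 8 AON12.1 libraries lay below the lowest WT library, as did 6 of 8 aCSF and 6 of 8 scrambled libraries, and across all genes 0.15% showed no overlap between AON12.1 and WT with AON12.1 lower. The Aldoc values against WT were -0.30 ± 0.08 (adjusted p = 0.0514) for AON12.1, -0.32 ± 0.08 (adjusted p = 0.1000) for aCSF and -0.22 ± 0.08 (adjusted p = 0.315) for scrambled, and none passed. The AON12.1 difference of Aldoc did pass in 5 of 13 other settings. These were number series as a covariate (adjusted p = 0.0488), RLE scaling (0.0471), a minimum count of 50 (0.0322), voom (0.0389) and DESeq2 (0.00291). Among the settings where it did not pass were the share of reads outside features as a covariate (0.0995) and libraries with a share up to 25% (0.266). AON12.1 and scrambled differed by -0.09 ± 0.08 (adjusted p = 0.876). The AON12.1 difference of Aldoc passed in 7 of 16 fits that left out 1 library, with adjusted p from 0.0365 to 0.101, and the aCSF difference in 1 of 16, without WT replicate 1 (adjusted p = 0.0309).

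Htra1 (ENSMUSG00000006205, chromosome 7), a secreted serine protease abundant in astrocytes, had a lowest, median and highest value of 138, 165 and 177 CPM in WT mice and, with aCSF, 111, 123 and 144 CPM in YAC128 mice. With AON12.1 it measured 115, 128 and 144 CPM and with scrambled 111, 136 and 189 CPM. In the aCSF group 7 of 8 libraries, and in the AON12.1 group 5 of 8, lay below the lowest WT library, while the scrambled group spread most. Its differences from WT were -0.38 ± 0.09 (adjusted p = 0.1000) for aCSF, -0.32 ± 0.09 (adjusted p = 0.0923) for AON12.1 and -0.19 ± 0.09 (adjusted p = 0.484) for scrambled, and none passed. AON12.1 against scrambled gave -0.13 ± 0.09 (adjusted p = 0.829). The aCSF difference passed without WT replicate 1 (adjusted p = 0.0370) and in no other of the 16 fits. The Htra1 annotation overlaps Fgfr2 on the other strand, which held 1083 counts over all libraries, and since the strand setting of the counting is not given, reads of the pair cannot be told apart.

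Set side by side, the 6 comparisons and a test of any difference among the 4 groups gave the following counts, which share groups with each other and are not independent. The members were chosen with earlier results of these data known, so their shares beside those of all genes are descriptions. For genotype, the members' median log2 fold change was -0.31 against -0.00 over all genes. At an unadjusted p under 0.05, 6 of 10 members were lower with genotype (Slc1a2, Aldoc, Htra1, Ndrg2, Etnppl and Glul), where 5.76% of all genes were lower and 12.5% differed in either direction. For AON12.1 against WT, 3 of 10 passed, all lower, against 0.328% of genes called lower, with a median of -0.31 against 0.01. For scrambled against WT, 2 of 10 passed, both lower, against 0.0375% of genes called lower, with a median of -0.15 against 0.01. Within YAC128, 0 of 10 passed for AON12.1 against scrambled (0.14% of all genes), for AON12.1 against aCSF (0.309%) and for scrambled against aCSF (0.0843%). At an unadjusted p under 0.05 there was 1 member for AON12.1 against scrambled (Kcnj10, with 7.25% of all genes), 2 for AON12.1 against aCSF (Slc1a2 higher and Kcnj10 lower, 11.6%) and 4 for scrambled against aCSF (9.83%). DESeq2 called 2 members for AON12.1 against aCSF, Slc1a2 and Kcnj10, with 94 genes in all. It called 0 members for scrambled against aCSF, with 20 genes in all. Limma voom called 0 members in each of the comparisons within YAC128. A difference among the 4 groups was called for Etnppl (adjusted p = 0.00821), Kcnj10 (0.0136) and Ndrg2 (0.0136), against 0.777% of all genes, and the adjusted p of Aldoc was 0.0533 and of Slc1a2 0.0540.

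**Figure D2:**
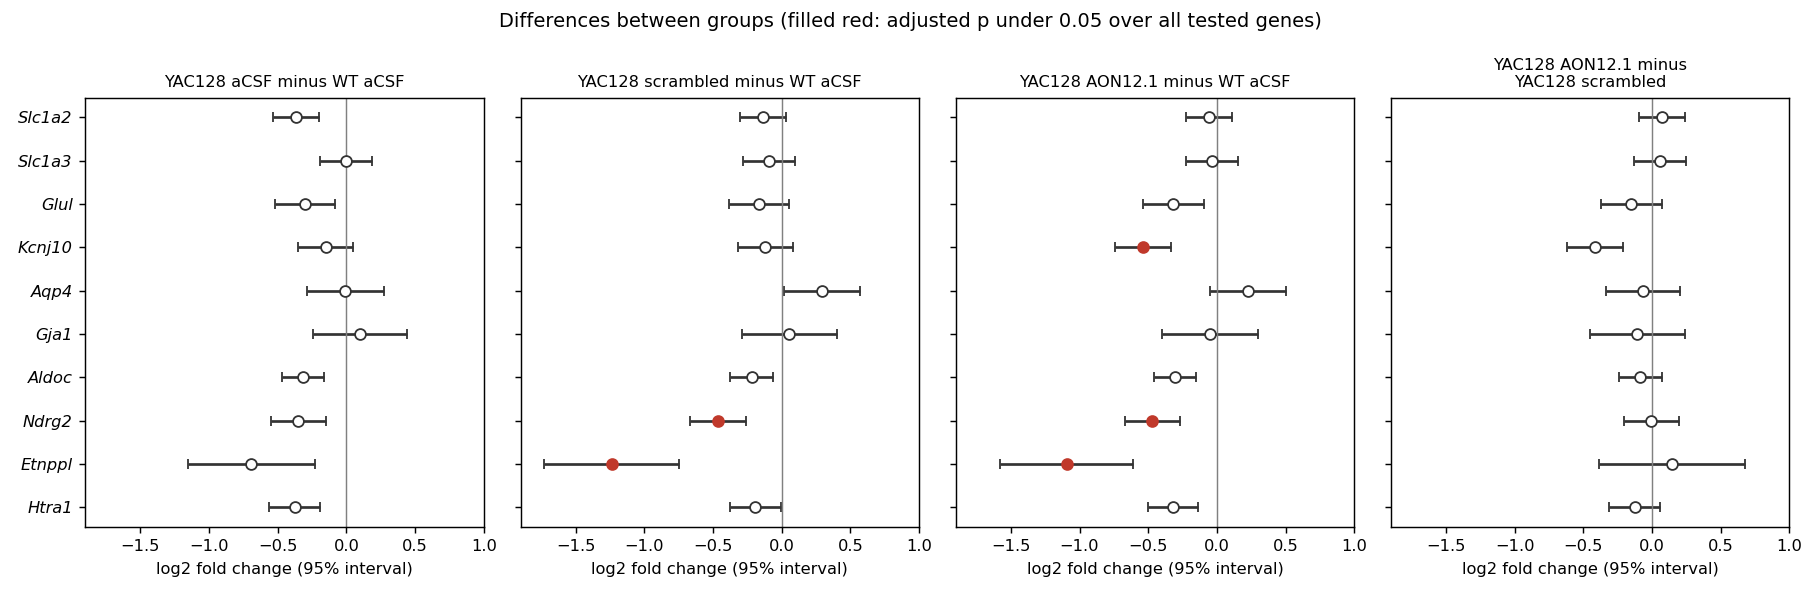
Log2 fold change of each member (points, with 95% intervals as bars) in 4 comparisons, with members past the threshold filled red. Etnppl and Ndrg2 lie below 0 in both oligonucleotide groups against WT and Kcnj10 with AON12.1 against WT, and no member is filled for genotype or for AON12.1 against scrambled.

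Since the 3 YAC128 groups had similar levels of several members, their mean was also set against WT in the same fit, a comparison chosen after the group levels were seen. Aldoc, Ndrg2 and Etnppl passed, all lower, against 0.14% of genes called lower. Their log2 fold changes were -0.28 ± 0.06 (adjusted p = 0.0284), -0.43 ± 0.08 (adjusted p = 0.00693) and -1.01 ± 0.19 (adjusted p = 0.00693). For Aldoc, Ndrg2 and Etnppl, 24 of 24 YAC128 libraries lay below the WT median, and for Htra1 23 of 24, with a value of -0.30 ± 0.07 (adjusted p = 0.0633). Kcnj10 stood at -0.27 ± 0.08 (adjusted p = 0.154) and Slc1a2 at -0.19 ± 0.07 (adjusted p = 0.210). Ndrg2 and Etnppl passed in 32 of 32 fits with 1 library left out and Aldoc in 27, being lost without WT replicate 2, 4, 6, 7 or 8 (adjusted p up to 0.0749). The Aldoc call held in 6 of 12 other settings, and was lost among others with scaling by library size alone (adjusted p = 0.0698) and with no filter on low counts (0.0738). Summed over the 10 members, the level was 4652 to 5383 CPM (median 4961) in WT, 3685 to 4581 CPM (median 3879) in YAC128 aCSF, 3772 to 4676 CPM (median 4206) with AON12.1 and 4032 to 4671 CPM (median 4185) with scrambled. No YAC128 aCSF library reached the lowest WT sum, while the AON12.1 and scrambled sums each overlapped WT at their upper end. Members with high CPM weigh most in this sum. In WT the means were 1662 CPM for Slc1a2, 1077 for Ndrg2, 881 for Aldoc and 575 for Glul, against 53.9 CPM for Etnppl. How often sums of other genes separate in this way was not tested.

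The share of reads outside features averaged higher in YAC128 aCSF libraries than in WT, and its relation to each of the 10 members was measured over 32 libraries (permutation test, two-sided, 100000 resamples, Benjamini-Hochberg adjusted over the 10 members). Aldoc gave r = -0.469 and rho = -0.434 (p = 0.00721 and 0.0135, adjusted p = 0.0535 and 0.0675), and r = -0.477 once the 2 most extreme libraries by share were left out. Over the 11 libraries of animals numbered from 18 its r was -0.553, and over the 21 numbered from 19 it was -0.427. Gja1 gave r = -0.447 and rho = -0.372 (p = 0.0108 and 0.0369, adjusted p = 0.0535 and 0.0922), with r = -0.329 without those 2 libraries and -0.464 and -0.421 within the number series. Glul gave r = -0.424 and rho = -0.409 (p = 0.0160 and 0.0211, adjusted p = 0.0535 and 0.0702), with r = -0.400 without the 2 farthest and -0.490 and -0.362 within the series. Slc1a2 gave r = -0.347 and rho = -0.441 (permutation p = 0.0519 and 0.0125, adjusted p = 0.130 and 0.0675), with r = -0.582 without the 2 farthest libraries. Within the series its r was -0.789 for animals numbered from 18 (rho = -0.727, permutation adjusted p = 0.0470 for r and 0.142 for rho) and -0.0366 for those from 19. The other 6 members had r between -0.309 and 0.0175 over all libraries. Within the series from 18 and from 19, r was 0.451 and -0.542 for Kcnj10 (permutation adjusted p = 0.32 and 0.11). It was 0.225 and -0.436 for Ndrg2 (0.62 and 0.14) and 0.358 and -0.195 for Etnppl (0.48 and 0.44). Without the 2 farthest libraries, Kcnj10 gave r = -0.259 in the series from 19. No member passed over all libraries, where 3 of 10 had an unadjusted p under 0.05 for r. These values hold differences between groups as well as within them. After each group's mean was removed, r was -0.142 for Slc1a2 (permutation adjusted p = 0.627), -0.266 for Aldoc (0.280) and -0.265 for Glul (0.280), and Gja1 alone passed, with r = -0.527 and rho = -0.510 (permutation p = 0.00169 and 0.00304, adjusted p = 0.0169 and 0.0304) and r = -0.510 without the 2 farthest libraries. With the share as a covariate in the fit, the values against WT were -0.53 (adjusted p = 0.00633) for Kcnj10, -0.47 (adjusted p = 0.0197) for Ndrg2 and -1.20 (adjusted p = 0.00887) for Etnppl with AON12.1, so these 3 still passed. For scrambled against WT the covariate fit gave -0.46 (adjusted p = 0.0276) for Ndrg2 and -1.30 (adjusted p = 0.00360) for Etnppl, and for the 3 YAC128 groups it gave -0.25 (adjusted p = 0.124) for Aldoc, which no longer passed. The genotype value of Slc1a2 under this fit was -0.34 (adjusted p = 0.281). Among libraries with a share up to 25% (7 WT, 3 aCSF, 5 AON12.1 and 7 scrambled libraries), the AON12.1 values against WT were -0.39 (adjusted p = 0.266) for Kcnj10, -0.40 (adjusted p = 0.235) for Ndrg2 and -1.07 (adjusted p = 0.141) for Etnppl.

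The animal numbers begin with 18 or 19, which is the only batch-like label, and what it marks is not given. WT held 3 and 5 libraries of these series, YAC128 aCSF 4 and 4, AON12.1 2 and 6, and scrambled 2 and 6. In a fit with 1 coefficient for each group and series, the genotype values in the series from 18 and from 19 were -0.47 and -0.30 for Slc1a2, -0.27 and -0.33 for Aldoc, and -0.19 and -0.49 for Ndrg2. For AON12.1 against WT, Kcnj10 gave -0.61 (adjusted p = 0.309) and -0.50 (adjusted p = 0.0561), Ndrg2 -0.38 (adjusted p = 0.515) and -0.52 (adjusted p = 0.0462), and Etnppl -1.50 (adjusted p = 0.321) and -1.03 (adjusted p = 0.0864). For scrambled against WT, Ndrg2 gave -0.48 (adjusted p = 0.575) and -0.48 (adjusted p = 0.252), and Etnppl -1.20 (adjusted p = 0.575) and -1.27 (adjusted p = 0.145). Each of these values was below 0 in both series, and with fewer libraries Ndrg2 in the series from 19 with AON12.1 was the sole one to pass. Gja1 had values of opposite sign in the series: for AON12.1 against aCSF it gave 0.63 (adjusted p = 0.151) and -0.58 (adjusted p = 0.418), and for AON12.1 against WT 0.67 (adjusted p = 0.413) and -0.35 (adjusted p = 0.347). The difference between the series, a test chosen after these values were seen, was 1.20 ± 0.31 for Gja1 in AON12.1 against aCSF (adjusted p = 0.0762) and 1.01 ± 0.32 against WT (adjusted p = 0.345), and no member passed it in any of the 6 comparisons. The genotype effect differed between the series for 0 of 10679 genes (447 at an unadjusted p under 0.05 by the same edgeR test), members included. For AON12.1 against aCSF, the difference between the series passed for 14 genes, with 1737 at an unadjusted p under 0.05. Against WT the AON12.1 difference between the series passed for 0 genes, with 964 at an unadjusted p under 0.05.

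Other astrocyte genes were read from 6 lists of 129 further genes, of which 104 were tested. With genotype, 0 of these 104 passed by edgeR's test (2 higher and 16 lower at an unadjusted p under 0.05, where 5.76% of all genes were lower and 12.5% differed in either direction), and the list medians lay nearer 0 than that of the 10 members. Glutamate and GABA handling (11 of 13 tested) had a median log2 fold change of -0.03, in which the cystine-glutamate exchanger gene Slc7a11 stood at -0.70 (adjusted p = 0.326). Potassium, water, gap junction and adhesion genes (17 of 19 tested) had a median of -0.10, with -0.24 (adjusted p = 0.150) for the chloride channel gene Ttyh1 and -0.39 (adjusted p = 0.189) for the carbonic anhydrase gene Car2. Astrocyte metabolism genes (28 of 30 tested) had a median of -0.06, and Aldh1l1, a folate enzyme widely used as an astrocyte marker, stood at -0.32 (adjusted p = 0.317) and the metallothionein gene Mt3 at -0.29 (adjusted p = 0.189). Secreted and surface protein genes (24 of 25 tested) had a median of -0.17, with -0.37 (adjusted p = 0.117) for cystatin C (Cst3) and -0.21 (adjusted p = 0.260) for the synaptogenic matrix protein gene Sparcl1. Transcription factor and identity genes (16 of 17 tested) had a median of 0.07, with Zbtb20 at 0.49 (adjusted p = 0.251), and reactive astrocyte genes (9 of 26 tested) one of -0.01, with Vim at 0.36 (adjusted p = 0.277) and Gfap at -0.16 (adjusted p = 0.780).

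Against WT, the AON12.1 group had higher levels of some reactive genes beside the lower members. Over all genes 0.234% were called higher in this comparison and 0.328% lower. Of the 9 tested reactive genes, 2 rose and 0 fell: the complement gene C4b, 1.63 (adjusted p = 4.65e-09), and the filament gene Vim, 0.65 (adjusted p = 0.00909). The calcium-binding protein gene S100b of the identity list rose by 0.49 (adjusted p = 0.00479), from 456 ± 55.6 CPM to 641 ± 93.6 CPM. In the secreted list, 2 of 24 fell, the angiotensinogen gene Agt, -1.39 (adjusted p = 0.0452), and the hyaluronan-binding Itih3, -1.11 (adjusted p = 0.0305). None of the 11 glutamate and GABA, 17 potassium and adhesion or 28 metabolism genes passed, with medians of -0.15, -0.10 and -0.04. AON12.1 differed from scrambled in 1 of the 104 genes, C4b, 1.19 (adjusted p = 6.67e-06), with 0.0936% of all genes called higher. Against YAC128 aCSF, 4 of the 104 were higher with AON12.1, against 0.215% of all genes: Cst3, 0.42 (adjusted p = 0.0206), S100b, 0.40 (adjusted p = 0.0402), Gfap, 0.77 (adjusted p = 0.0410), and C4b, 1.64 (adjusted p = 3.20e-09). Scrambled against aCSF gave 0 of 104 (8 higher and 5 lower at an unadjusted p under 0.05), and scrambled against WT gave 1, S100b, 0.41 (adjusted p = 0.0498), with 0.131% of all genes called higher. Agt, Itih3 and S100b were named because they passed, after their values were seen.

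**Figure D3:**
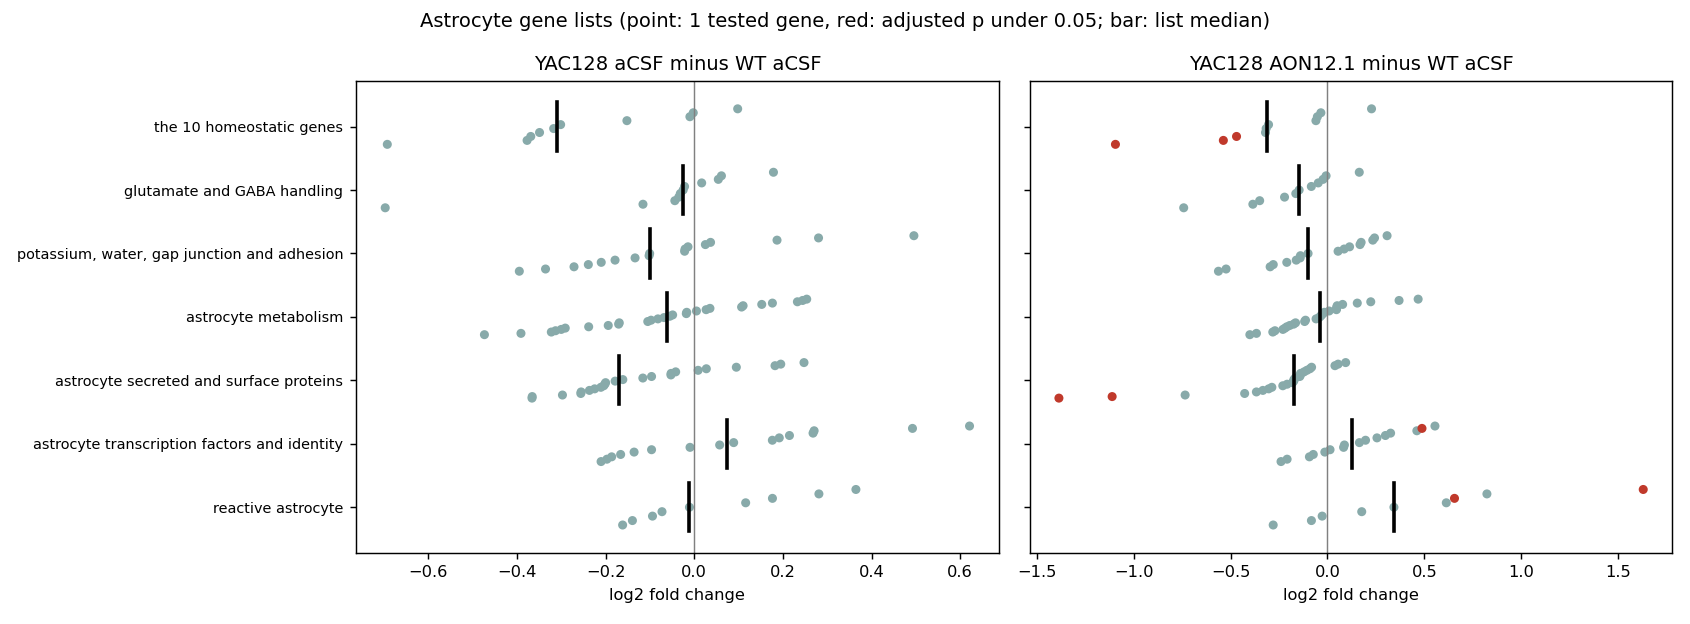
Log2 fold change of each tested gene (points) of the 10 homeostatic genes and of 6 other astrocyte lists, for YAC128 aCSF and for YAC128 AON12.1 against WT aCSF, with genes past the threshold in red and list medians as black bars. The homeostatic genes have a median of -0.31 in both panels, and the reactive list one of -0.01 and 0.34.

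Defining astrocyte markers outside the 10 genes (Gfap, Aldh1l1, Sox9, S100b, Gjb6, Slc4a4 and Mlc1) were all detected, and none of the listed markers of any cell type was at 0 in every library. Their summed level was 914 to 1200.5 CPM (median 1000.3) in WT, 935 to 1178 CPM (median 1007) in YAC128 aCSF, 1075 to 1440.3 CPM (median 1241) with AON12.1 and 1065 to 1425 CPM (median 1156) with scrambled, and the 4 ranges overlapped. This sum joins markers that moved in opposite directions. For AON12.1 against WT, 2 of the 7 were higher and 2 lower at an unadjusted p under 0.05 by edgeR's test. S100b alone passed, as higher (0.234% of all genes were called higher). Gjb6 stood at -0.56 (adjusted p = 0.108) and Aldh1l1 at -0.37 (adjusted p = 0.198). The nuclear factor Sox9 averaged 150.4 ± 19.6 CPM, 156 ± 13.9 CPM, 160.1 ± 17.0 CPM and 149.6 ± 29.7 CPM in the same order, with a genotype value of 0.06 (adjusted p = 0.873). Markers of some other cells had lower values with genotype and others did not. The 15 striatal projection neuron markers summed to 5839.7 to 12485 CPM (median 9140.0) in WT and 3789 to 7888 CPM (median 6751) in YAC128 aCSF. With genotype, 14 of 15 had lower values and 2 passed, with a median of -0.34. Of all genes, 50.7% had lower values and 0.0749% passed. With AON12.1 and scrambled these sums were 6823 to 12078 CPM (median 8427) and 3744 to 8739 CPM (median 7487). All 15 had higher values with AON12.1 than with scrambled (median 0.32) and than with aCSF (median 0.42), and 0 passed. At an unadjusted p under 0.05 by edgeR's test these were 7 and 11 of the 15, against 7.25% and 11.6% of all genes in either direction. The 12 oligodendrocyte markers summed to 6712 to 9119 CPM (median 7844) in WT, 5285 to 7233 CPM (median 6961) in aCSF, 6492 to 11550.1 CPM (median 6599.8) with AON12.1 and 6453 to 7742 CPM (median 7141) with scrambled. The 11 microglial markers summed to 818 to 1079 CPM (median 933), 727 to 999 CPM (median 835), 904 to 1529 CPM (median 1083) and 971 to 1322 CPM (median 1135), and the 9 choroid plexus markers found, of 10 listed, to 52.1 to 100.5 CPM (median 69.5), 45.0 to 3421 CPM (median 104), 37.8 to 218 CPM (median 59.4) and 41.3 to 91.7 CPM (median 71.5). Of the markers tested with genotype, 8 of 12 oligodendrocyte and 10 of 11 microglial markers had lower values (medians -0.08 and -0.09), as did 5 of 7 cortical excitatory neuron markers (-0.16), 3 of 6 oligodendrocyte precursor markers (0.02) and 5 of 11 endothelial and mural markers (0.00), and none of these passed. The tested choroid plexus (3), ependymal (2) and neural stem (3) markers all had higher values, with medians of 0.66, 0.38 and 0.33, and none passed. The part of these markers in the members' values was not tested.

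Within groups the members did not vary as 1 unit. Over 32 libraries, with each group's mean removed from log2 CPM, 34 of the 45 pairs of members had a positive Pearson r, with a median of 0.156 and a range of -0.257 to 0.590. The closest pairs were Aldoc with Glul (r = 0.590), Kcnj10 with Etnppl (0.563) and Aldoc with Ndrg2 (0.513). With the mean of the other 9, Aldoc gave r = 0.559, Kcnj10 0.506, Slc1a3 0.496 and Glul 0.439, whereas Htra1 gave 0.0959 and Slc1a2 -0.0346. These points share their library, depth and composition, so the values are descriptions.

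**Figure D4:**
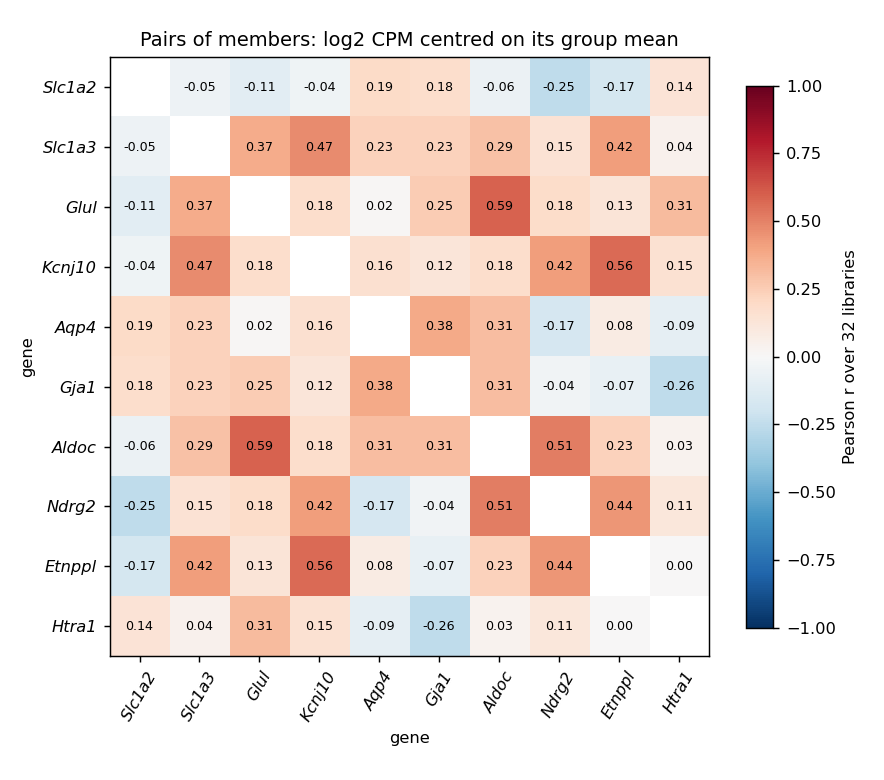
Pearson r between each pair of members over 32 libraries (rows and columns are genes, colour and printed value give r), from log2 CPM centred on the group mean. Aldoc with Glul and Kcnj10 with Etnppl are the strongest pairs, at 0.590 and 0.563, and 6 of the 9 values of the Slc1a2 row are below 0.

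The 10 other genes whose centred profile over the 32 libraries was most like the members' mean profile were Vps37d (r = 0.742, rho = 0.767), a component of the ESCRT-I sorting complex, Mlc1 (0.709), a membrane protein of astrocyte endfeet, the tubulin gene Tubb2b (0.660), 6330403K07Rik (0.646), Sparcl1 (0.646), the N-cadherin gene Cdh2 (0.630), the small GTPase gene Arl4c (0.623), Plpbp (0.614), Impad1 (0.613) and the magnesium transporter gene Slc41a2 (0.593). Over all tested genes the median of r was 0.00 and the 99th percentile 0.485. Mlc1 and Sparcl1 are on the astrocyte lists and the other 8 are not. The same centred profile of Mlc1 followed the share of reads outside features with r = -0.556, and that of Arl4c with 0.0304.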

How the data were processed

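Striatal RNA from 32 mice was sequenced with barcoded oligo-dT libraries made from 100 ng of total RNA by a modified mcSCRB-seq method, per the labels' protocols. Each library has 1 deposited table of raw gene counts, whole numbers without normalization by the authors. FastQC, cutadapt 2.10, the aligner STAR 2.7.5a and the counter HTSeq 0.12.4 are listed with the genome build GRCm39 in the submitters' processing notes. Collapsing by molecular identifier and the strand setting of the counting are not given in the sources used here. The 5 summary lines of each file stayed out of library sizes and tests. Symbols were looked up by Ensembl identifier in an annotation of GRCm38 (52081 features, 99.8% of counts), so no gene coordinates of the counting build are given. Promoter sequences are from RefSeq on GRCm38.p6. Promoters of the chromosome that holds Aqp4 were left out before any matching. The median GC content and the percentages of all promoters therefore do not cover that chromosome.

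The tests used edgeR 4.0.16 in R 4.3.3: filterByExpr (minimum count 10, minimum total 15), TMM scaling and 1 quasi-likelihood fit over all 32 libraries with 1 coefficient per group. The common biological coefficient of variation was 0.167. Log2 fold changes have SE and 95% intervals from this fit, and p-values were Benjamini-Hochberg adjusted over the 10679 tested genes. The procedure was tested on simulated data. Groups were taken from the labels, which give no replicate numbers, so replicates were numbered in accession order. The alternatives were other scaling, filters of none or a minimum count of 50, covariates, subsets of libraries, leaving out each library, DESeq2 1.42.0 and limma 3.58.1 voom.

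The 10 members and all gene lists were chosen with earlier results of these data known. Named genes were all members, up to 3 genes per astrocyte list with the smallest p for genotype and for AON12.1 against scrambled, the 10 genes most like the members' mean profile, Gfap and Aldh1l1, and a part of these is printed. The list of defining astrocyte markers first held 1 more gene, which is not reported here. With 5 to 87 counts per library, Etnppl carries the largest counting error among the members.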

Additional observations from a re-analysis of the deposited data

Results flagged for a closer look

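In a group of 8, a library was taken as far from the others when its gap to the nearest one, as a share of the group's whole range, exceeded Dixon's 95% critical value, which chance exceeds in about 1 of 20 groups. Of the 40 groups tested (10 members in 4 groups), 2 held such a library, and 2 are expected by chance.

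Aqp4 was at 37.9 CPM in scrambled replicate 3, the lowest of its group, with the nearest library at 61.3 CPM and a gap of 0.532 of the range. That library had 26.8% of its reads outside features. Etnppl was at 52.8 CPM in scrambled replicate 7, the highest of its group, with the nearest library at 27.6 CPM and a gap of 0.606 of the range. That library had 19.97% of its reads outside features.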

How the results depend on the processing

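Of 884 member values recomputed under other settings, 26 lost a call and 16 gained one. A further 1, with an unadjusted p under 0.05 by edgeR's test over all animals, reversed its sign. The other 841 kept their side of the threshold, though not always their sign. In all, 47 values changed sign, from values of at most 0.185 on the log2 scale that were not called. The reversed value was Htra1 for scrambled against aCSF, at -0.079 in animals numbered from 18 (adjusted p = 0.888) against 0.19 over all animals; the cause was not tested. DESeq2 called 3 members for genotype (Slc1a2, Aldoc and Ndrg2), 1 for AON12.1 against scrambled, 2 for AON12.1 against aCSF and 5 for AON12.1 against WT. Over all genes, DESeq2 called 54, 20, 94 and 106 in these comparisons. Voom called 1 member and 9 genes for genotype. The cause of these changes was not tested. For AON12.1 against aCSF, library size scaling alone gave 1 and a minimum count of 50 gave 1. Scrambled against WT gave 1 at a minimum count of 50, where Etnppl is not tested. Keeping libraries with up to 25% of reads outside features left 0 members for AON12.1 against WT, 0 for scrambled against WT, 1 for the 3 YAC128 groups and 0 for any difference among groups. Refits within the animals numbered from 18 or from 19 gave 0 in each of these series for AON12.1 against WT, scrambled against WT and the 3 YAC128 groups. These subsets hold fewer libraries. The relation with the share of reads outside features passed for 0 members over all libraries and for 1 after group means were removed.

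Leaving out 1 library at a time, the number of members called ran from 0 to 3 for genotype (3 without WT replicate 1), 0 to 1 for AON12.1 against scrambled, 0 to 2 for AON12.1 against aCSF, 0 to 0 for scrambled against aCSF, 3 to 4 for AON12.1 against WT, 1 to 2 for scrambled against WT, 2 to 4 for the 3 YAC128 groups and 3 to 4 for any difference. No paired analysis was made, since the groups hold separate animals and the labels give no pairing between them. Over all genes, the calls under the other settings of all libraries or subsets ran from 1 to 54 for genotype (8 in the fit reported), 1 to 20 for AON12.1 against scrambled (15), 2 to 276 for AON12.1 against aCSF (33), 1 to 20 for scrambled against aCSF (9), 3 to 106 for AON12.1 against WT (60), 3 to 33 for scrambled against WT (18), 2 to 70 for the 3 YAC128 groups (25) and 24 to 129 for any difference (83). With 1 library left out they ran from 3 to 142 for genotype (142 without WT replicate 1), 10 to 17 for AON12.1 against scrambled, 26 to 73 for AON12.1 against aCSF, 3 to 13 for scrambled against aCSF, 49 to 97 for AON12.1 against WT, 10 to 27 for scrambled against WT, 13 to 103 for the 3 YAC128 groups and 62 to 110 for any difference. DESeq2 gave no adjusted p for 9 of 70 member values. At this depth the SE of a member's log2 fold change was 0.08 to 0.26 between 2 groups.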
